A study of Bos taurus with 12 samples.

Results

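The genes of the interleukin-6 (IL6) cytokine family and of its transcription factor STAT3 were measured in mammary biopsies of early lactation cows. The 7 genes were the cytokines IL6 and LIF, the receptor chains IL6R, IL6ST, LIFR and OSMR, and STAT3. A probe was assigned to a gene when the RefSeq accession given for it, without its version, belonged to that gene in the bovine RefSeq table. This rule gave 16 of the 43653 probes of the array, and they covered 6 of the 7 genes among 12639 named genes. STAT3 had 5 probes, LIFR 4, IL6, IL6R and LIF 2 each, and OSMR 1. No probe matched IL6ST, the signaling chain that the receptors of this family share, and it is not described here.

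In this family, the cytokine binds its receptor chains at the cell surface, Janus kinases attached to these chains become active, and STAT3 is phosphorylated and enters the nucleus. In the liver the IL6 branch turns on the acute phase genes. In the mammary gland (MG), LIF and STAT3 are best known for starting the loss of milk-producing cells at weaning, and oncostatin M, the ligand of OSMR, acts in the same process. Because STAT3 is switched by phosphorylation, its mRNA level is not a measure of its activity.

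Each of the 12 arrays was hybridized with the RNA of 1 multiparous Holstein cow, and the diets started at about 24 days in milk. The 6 control cows (CONT) had free access to a lactation diet. For 4 days the 6 restricted cows (REST) were fed a poorer ration, in which barley straw made up 48% of dry matter. All 12 cows had 50 µg of lipopolysaccharide (LPS) infused into a rear gland of the udder on day 3 of this period, and the biopsies were taken 24 h after it. Both groups were thus inflamed, no unchallenged gland was measured here, and the comparison is between the diets and not of LPS. In a biopsy, fewer cells of a type and less RNA per cell cannot be told apart.

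Values are log2 spot intensities minus the 75th percentile of the same array, so that 0 is the level of this percentile. The percentile was 577.1 to 1184 intensity units in CONT and 386.9 to 1082 in REST. The arrays lay on 3 slides, with 3 CONT and 1 REST on slide 1, 1 CONT and 3 REST on slide 2, and 2 of each on slide 3. Diet was thus not balanced over the slides, and the main fit had no term for the slide. Markers of the milk-secreting epithelium (7 of 8 matched, all well above background on the 12 arrays) had mean log2 signals of 7.08 to 9.14 in CONT and 7.49 to 9.53 in REST. A few cows stood apart. REST cow 0049 had the lowest percentile, and its log2 signals of the acute phase genes HP (-3.51) and SAA3 (4.44) were below those of the other 11 cows. CONT cow 8027 had the lowest means for secretory epithelium (7.08) and endothelium (-1.68). HP and SAA3 were chosen after their values were seen.

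No probe of the family differed between the diets after adjustment over the array. With limma's moderated test, 0 of the 16 probes passed an adjusted p of 0.05, whichever of the Westfall-Young and Benjamini-Hochberg adjustments was used, and 0.0% of all 43653 probes did. At an unadjusted p under 0.05, 1 of the 16 probes passed, a dim LIFR probe, and the background for this count is 2.62% of all probes. For 0 of the 16 probes were the REST values separate from the CONT values, where 0.128% of all probes were. Feature Extraction called 11 of the 16 probes well above background on all 12 arrays and 14 on at least 1.

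The cytokines were hardly measurable at this time. IL6, the pyrogenic cytokine that gives the family its name, was well above background with its brighter probe (A_73_107706) in 1 CONT cow (8027, log2 signal -4.32) and 1 REST cow (1018, -4.36). On that probe the 6 CONT cows ranged from -6.48 to -4.32, with a median of -5.82, and the 6 REST cows from -7.02 to -4.36, with a median of -6.25. These ranges overlapped almost entirely, and 10 of the 12 values are not above background. No difference between the diets is read from them. The other IL6 probe was not well above background in any cow.

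LIF, the cytokine that activates STAT3 at the start of involution in the mouse, was well above background in 1 of the 12 cows. That cow was REST 0049, with a log2 signal of -4.13 on the brighter probe (A_73_114692). The other 5 REST cows ranged from -7.65 to -4.67 and the 6 CONT cows from -7.86 to -5.52, and none of these values was above background. No fold change is given for LIF, because no lower bound above 1 could be set. The dimmer LIF probe was not well above background in any cow.

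IL6R, the chain that binds IL6 itself, was above background in every cow with a value. Its brighter probe (A_73_109652) had log2 signals of 0.08 to 1.39, median 0.74, among CONT cows and of -0.22 to 1.34, median 1.08, among REST cows. CONT cow 1024 had no value on that probe because its spot was marked as an outlier, so that 5 CONT cows entered the fit. Inside REST the cows split into 4 with signals of 0.86 or more and 2, 0049 and 1015, with -0.22 and 0.04. CONT cows 0015 (0.08) and 1076 (0.16) were similarly low, so that low cows occurred on both diets. The difference REST minus CONT was 0.06 with an SE of 0.37 and a 95% confidence interval of -0.74 to 0.86 (limma, unadjusted p = 0.865). This interval allows changes of that size in either direction.

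The dimmer IL6R probe (A_73_P092326) was measured in all 12 cows and did not follow the brighter one. Its log2 signals were between -3.44 and -2.32 (median -2.86) for CONT and between -3.19 and -2.36 (median -3.01) for REST. The difference was -0.04 with an SE of 0.21 (limma, unadjusted p = 0.837). Over the 11 cows with both values the correlation between the probes was -0.23. REST cow 0049, the lowest cow on the brighter probe, was the highest REST cow on the dimmer one. Statements on IL6R therefore hold for one probe at a time.

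LIFR, the receptor chain that LIF and, in several species, oncostatin M use, was measured by 3 probes on all 12 arrays, and by 1 more on 6 arrays. The brightest (A_73_101806) had log2 signals of -4.17 to -2.09, median -2.25, among CONT cows and of -2.87 to -1.91, median -2.23, among REST cows. The medians were close, and the low end of CONT was 1 cow, 8027, whereas the other 5 CONT cows lay between -2.53 and -2.09. The difference was 0.26 with an SE of 0.34 and a 95% confidence interval of -0.46 to 0.99 (limma, unadjusted p = 0.446). Without CONT cow 8027 it was -0.05.

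The next 2 LIFR probes in brightness varied over the cows much like the first. Their correlations with the first probe were 0.88 and 0.90 over 12 cows, and cow 8027 was the lowest on all 3. On the brighter of them (A_73_P314311) the difference was 0.37 with an SE of 0.26 (limma, unadjusted p = 0.18). On the dimmer (A_73_P070006) it was 0.47 with an SE of 0.30 (limma, unadjusted p = 0.14). Without CONT cow 8027 the differences fell to 0.20 and 0.21, and without REST cow 0049 that of the brighter probe was 0.23.

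The dimmest LIFR probe (A_73_P361621) was the one that passed the unadjusted threshold. It was well above background in 1 of 6 CONT cows and 5 of 6 REST cows. In CONT its log2 signals were -6.24 for cow 8027, -5.68 for 1024, -5.59 for 0055, -5.42 for 1076, -5.30 for 9040 and -3.75 for 0015. In REST they were -4.79 for cow 1015, -4.30 for 0078, -4.27 for 1018, -4.22 for 7043, -3.58 for 0049 and -3.54 for 1058. The REST cows thus lay above 5 of the CONT cows, and the groups overlapped through CONT cow 0015 alone.

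For this probe the fitted log2 difference was 1.21 with an SE of 0.37 (limma, unadjusted p = 0.0061; exact permutation p = 0.0152, two-sided). Its Westfall-Young adjusted p was 1 and its Benjamini-Hochberg adjusted p 0.99992, both over all probes with limma. Within the 3 slides the differences lay between 1.09 and 1.27. With normexp background correction the difference was 0.27 (limma, unadjusted p = 0.401), and without slide 1 it was 1.01 (limma, unadjusted p = 0.0911). Because 5 of the 6 CONT values are not above background, the difference rests on signals without a measured level, no fold is given, and the probe is limited to a statement on detection.

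OSMR, the chain specific to oncostatin M and IL31 signaling, had the largest difference among the brightest probes that were above background in all cows. Its single probe (A_73_P328041) gave log2 signals in CONT of -2.21 for cow 0015, -1.39 for 1076, -1.31 for 1024, -0.97 for 8027, -0.96 for 9040 and -0.71 for 0055. In REST the signals were -3.21 for cow 0049, -2.59 for 1015, -1.70 for 7043, -1.37 for 1058, -1.27 for 0078 and -0.95 for 1018. Cows 0049 and 1015 lay below every CONT cow, and the other 4 REST cows lay within the CONT range.

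The OSMR difference was -0.59 with an SE of 0.39 and a 95% confidence interval of -1.43 to 0.25 (limma, unadjusted p = 0.151; exact permutation p = 0.197). In 5 of 6 REST cows the signal was below the CONT mean. From the lowest to the highest cow the signal spanned a 5.65-fold range, wider than the difference between the diets. Without REST cow 0049 the difference was -0.32, and with the slide as a block it was -0.33. Within slides 1, 2 and 3 it was -0.14, -1.54 and 0.43, so that its size rested on slide 2, which holds cows 0049 and 1015.

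**Figure D1:**
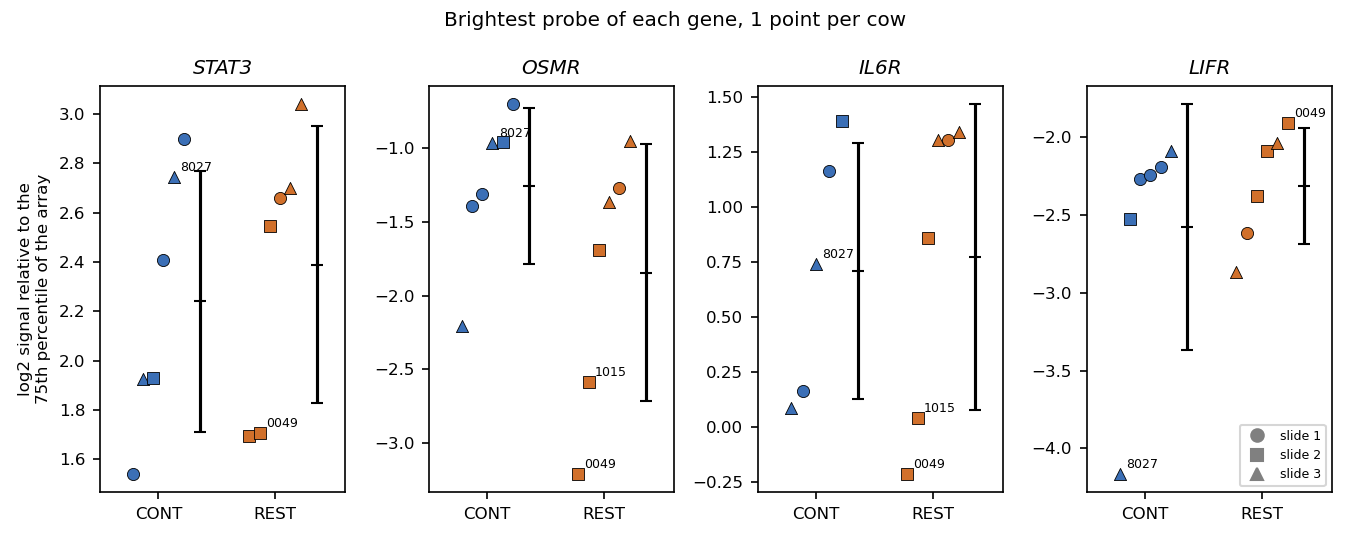
Log2 signal relative to the 75th percentile of the array (vertical axis) for the brightest probe of STAT3, OSMR, IL6R and LIFR, with 1 point per cow, the symbol giving the slide, and bars for the mean ± SD of each diet (n = 6, and 5 CONT cows for IL6R). The diets overlap in all 4 genes; REST cow 0049 has the lowest OSMR signal (-3.21) and CONT cow 8027 the lowest LIFR signal (-4.17).

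STAT3, the transcription factor of the family, was above background on all 5 probes in all 12 cows. On the brightest probe (A_73_104691) the log2 signals of CONT were 1.54 for cow 1076, 1.92 for 0015, 1.93 for 9040, 2.41 for 1024, 2.74 for 8027 and 2.90 for 0055. Those of REST were 1.69 for cow 1015, 1.71 for 0049, 2.54 for 7043, 2.66 for 0078, 2.70 for 1058 and 3.04 for 1018. Both diets included cows with low and with high signals, and the ranges overlapped almost entirely.

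The STAT3 means were 2.24 ± 0.53 (SD, n = 6) for CONT cows and 2.39 ± 0.56 (SD, n = 6) for REST cows. The difference was 0.15 with an SE of 0.30 and a 95% confidence interval of -0.50 to 0.80 (limma, unadjusted p = 0.627; exact permutation p = 0.647). Leaving out single cows moved it from 0.0095 (without CONT cow 1076) to 0.29 (without REST cow 1015). The interval does not exclude a change of 0.80 upward or of 0.50 downward on the log2 scale.

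The other 4 STAT3 probes did not settle the direction. Their differences were -0.17, 0.38, 0.24 and 0.41 in order of brightness, with unadjusted limma p-values between 0.236 and 0.489. The correlations between pairs of STAT3 probes ranged from 0.30 to 0.91 over 12 cows (10 pairs). Among the 3 dimmest probes they were 0.76 to 0.91, and the pair of the brightest and the dimmest reached 0.47.

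**Figure D2:**
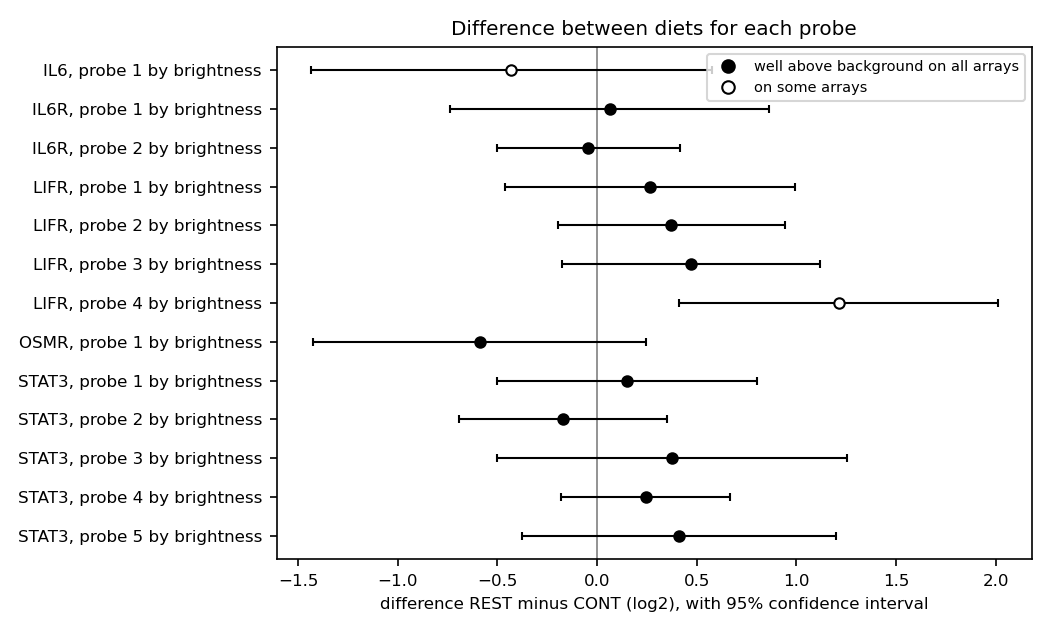
Difference REST minus CONT in log2 signal (horizontal axis) with its 95% confidence interval, for the 13 probes that were well above background in both diets; filled points were above background on all arrays. The interval leaves out 0 for 1 probe, the dimmest LIFR probe (1.21), which was above background in 1 of 6 CONT cows; the IL6 probe was above background in 1 cow of each diet.

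The levels of the receptors and of STAT3 were then compared over the cows because cows of the same diet differed widely. Of the 21 pairs of the 7 genes, 6 could be computed, since IL6 and LIF were not above background in all cows and IL6ST had no probe. By Pearson's r the strongest was IL6R with OSMR, with an r of 0.82 and a Spearman rho of 0.74 over 11 cows (permutation p = 0.00135, Benjamini-Hochberg 0.0081 over 6 pairs; for rho 0.0379). OSMR and STAT3 had an r of 0.67 and a rho of 0.76, the highest of the 6, over 12 cows (Benjamini-Hochberg adjusted permutation p = 0.0318 and 0.0332). For IL6R and STAT3 the r was 0.76 and the rho 0.58 (0.0318 and 0.0972).

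These relations rested in part on the cows with the lowest signals. Without REST cows 0049 and 1015, the farthest from the median, r was 0.65 for IL6R with OSMR (permutation p = 0.056), 0.64 for IL6R with STAT3 (0.0607) and 0.48 for OSMR with STAT3 (0.163). Without cow 0049 alone the 3 values were 0.75, 0.72 and 0.61. Within CONT they were 0.82, 0.50 and 0.57, and within REST 0.98, 0.96 and 0.97, where the same 2 cows set the low end. After removal of the slide means they were 0.84, 0.76 and 0.59. With the dimmer IL6R probe in place of the brighter one, r was -0.24 with OSMR and -0.26 with STAT3, so that both relations of IL6R belong to the brighter probe alone.

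LIFR went the other way, but not past the threshold. Its r was -0.45 with OSMR, -0.40 with STAT3 and -0.24 with IL6R, with Benjamini-Hochberg adjusted permutation p-values of 0.199, 0.235 and 0.548. By rank, LIFR and OSMR had a rho of -0.64 (adjusted permutation p = 0.0555). In the RefSeq annotation LIFR and OSMR are close neighbors on the same chromosome, with 3 annotated genes between them, of which 0 are protein coding.

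Each member was also set against the mean signal of 12 marker lists of cell types and of the 2 lists of STAT3 target genes (acute phase and involution), over the same cows. These 56 relations, of 4 members with 14 lists, were chosen after values of the members had been seen. With the Benjamini-Hochberg adjustment over all 56, 13 passed by Pearson's r, 8 by Spearman's rho and 7 by both. The part of cell composition in any difference between the diets was not tested. Members and lists share the subtraction of the 75th percentile of the array. The secretory epithelium mean was highest in cows 0049 and 1015, which had the lowest percentiles (386.9 and 508.5). It was lowest in cow 8027, which had the highest (1184), and next lowest in cow 1018 (735.6). The part of this shared term in the relations was not tested.

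IL6R (brighter probe) followed the neutrophil markers most closely, with an r of 0.90 and a rho of 0.96 over 11 cows (adjusted permutation p = 0.00392 and 0.00168). Without cows 0049 and 1015 r was 0.86, within CONT 0.83 and within REST 0.95. The neutrophil list had 7 of its 8 genes matched, among them the calcium-binding proteins S100A8, S100A9 and S100A12, and 5 were above background in all cows. Its mean ranged from -0.37 to 1.69 in CONT and from -1.90 to 1.56 in REST, with cow 0049 the lowest. The pan-leukocyte markers gave an r of 0.90 with IL6R. For the dimmer IL6R probe r with the neutrophil list was -0.45, and -0.13 without cow 0049.

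LIFR followed the secretory epithelium, with an r of 0.81 and a rho of 0.79 over 12 cows (adjusted permutation p = 0.00728 and 0.045). Without cows 8027 and 1018 r was 0.61 (permutation p = 0.0581). The next 2 LIFR probes had values of 0.82 and 0.60 with this list, and without cow 8027 the dimmer of them had 0.22. The B cell markers gave an r of 0.80 with LIFR, and 0.68 without cows 8027 and 1018. In cow 8027 the signals of LIFR and of the secretory epithelium markers were thus low together.

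OSMR ran against the secretory epithelium, with an r of -0.82 and a rho of -0.89 over 12 cows (adjusted permutation p = 0.0098 and 0.00504). Without cows 0049 and 1015 r was -0.72, within CONT -0.69 and within REST -0.91. Cows 0049 and 1015, the lowest for OSMR, had the highest secretory epithelium means, at 9.53 and 9.25. The fibroblast markers had an r of 0.86 with OSMR, and 0.53 without these cows (permutation p = 0.112). Of the 6 fibroblast markers, 3 (COL1A1, COL1A2 and LUM, which code for matrix proteins) had an unadjusted p under 0.05 and were lower in REST, by -0.72, -0.65 and -0.84, where 1.01% of all named genes were lower at this level. None of the 3 passed adjustment over the array (limma, Westfall-Young adjusted p = 1 and Benjamini-Hochberg 0.99992 for each). The other COL1A1 probes gave -0.67 to -0.03, none with an unadjusted limma p under 0.05. The other COL1A2 probes above background in all cows gave -0.77 to -0.21, and the second LUM probe -0.55. Without REST cow 0049 the differences of COL1A1, COL1A2 and LUM were -0.53, -0.44 and -0.79. The fibroblast mean ranged from 2.45 to 2.82 in CONT and from 1.35 to 3.02 in REST.

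OSMR had 5 more relations that passed by r alone, and 1, with the myoepithelium list, that passed by rho alone (rho = 0.77, adjusted permutation p = 0.045; r = 0.64, adjusted permutation p = 0.0645, and 0.65 without REST cows 0049 and 1015). For the 5, r was 0.75 with the neutrophil list, 0.78 with the pan-leukocyte list, -0.77 with the B cell list, 0.73 with the acute phase targets of STAT3 and 0.73 with the involution genes (adjusted permutation p = 0.0305, 0.0257, 0.023, 0.0406 and 0.0406). By rho none of the 5 passed (adjusted permutation p of 0.0736 to 0.183). Without REST cows 0049 and 1015 the 5 values were 0.30, 0.31, -0.58, 0.35 and 0.25. Of the 4 members, only OSMR passed with the lists of STAT3 targets, but STAT3 and IL6R were close to the threshold. With the acute phase targets r was 0.66 for STAT3 and 0.69 for IL6R (adjusted permutation p = 0.0561 for both). With the involution genes it was 0.63 and 0.66 (0.0645 for both). Without CONT cow 1076 and REST cow 1015 the STAT3 values were 0.80 and 0.70 (permutation p = 0.00415 and 0.0206). Without REST cows 0049 and 1015 those of IL6R were 0.49 and 0.35. Differences between members were not tested.

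Markers of other cell types passed an unadjusted p of 0.05 in the other direction, higher in REST, as 1.63% of all named genes did. They were VWF, a clotting factor of the endothelium, at 0.79, CD3D of the T cell receptor complex at 0.60, and MS4A1, the B cell antigen CD20, which was above background in 0 CONT cows and is given no fold. The T cell list as a whole was split, with 3 genes higher and 3 lower in REST and a median of 0.0015, and the second CD3D probe gave -0.12. All 5 endothelial markers were higher in REST, with a median of 0.50, and the other 4 did not pass. Without CONT cow 8027 this median was 0.15 and the VWF difference 0.50. VWF, CD3D and MS4A1 did not pass adjustment over the array (limma, Benjamini-Hochberg adjusted p = 0.99992).

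STAT3 was related to both epithelial lists, in opposite directions. Its r was 0.73 with the luminal keratin and adhesion genes (adjusted permutation p = 0.0434) and -0.72 with the secretory genes (0.0406). For rho the adjusted values were 0.0489 and 0.0879. With the neutrophil list r was 0.56 on this brightest probe (adjusted permutation p = 0.114). The other STAT3 probes, in order of brightness, gave 0.63, 0.32, 0.50 and 0.10 with the luminal list. With the secretory list they gave -0.70, -0.20, -0.45 and -0.02, and with the neutrophil list 0.60, 0.52, 0.69 and 0.42. These relations thus differed between STAT3 probes, as did the order of the lists, and differences between the lists were not tested.

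**Figure D3:**
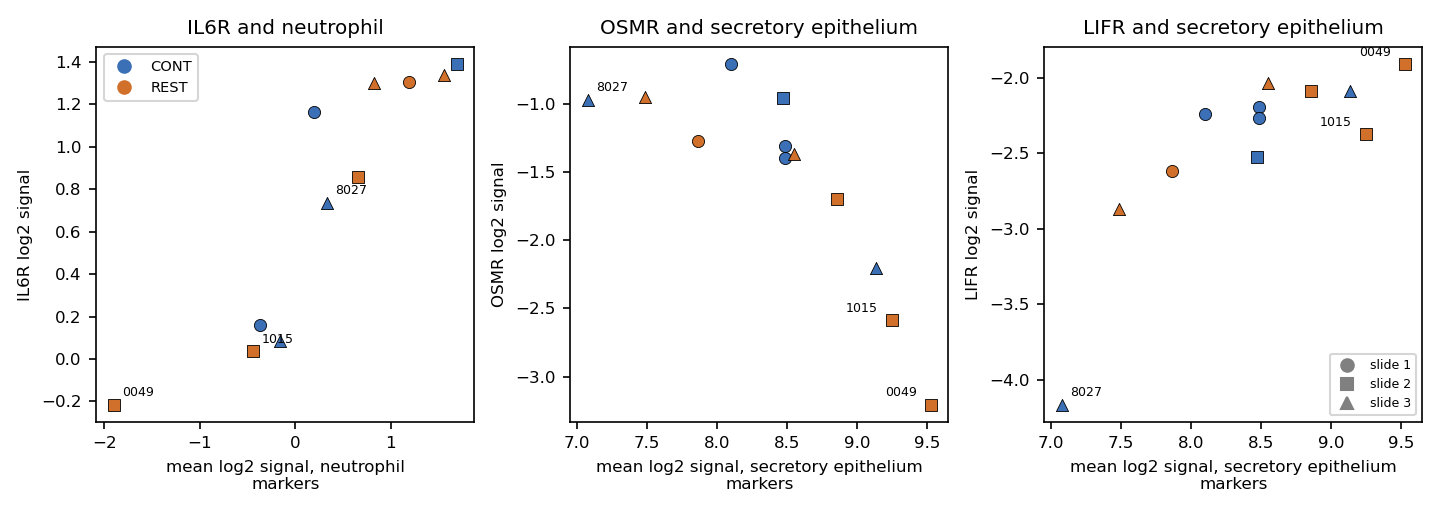
Log2 signal of IL6R, OSMR and LIFR (brightest probes, vertical axes) against the mean log2 signal of neutrophil or secretory epithelium markers (horizontal axes), with 1 point per cow, colored by diet and shaped by slide. IL6R is higher in cows with more neutrophil marker signal (r = 0.90), and OSMR is lower (-0.82) and LIFR higher (0.81) in cows with more secretory epithelium signal.

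The genes with the most similar pattern over the cows were taken from 9082 genes above background on all arrays, as a description. For IL6R they were GAS7 (r = 0.99), RHOQ (0.97) and GMIP (0.97), over 11 cows. For LIFR they were CES1 (0.97), SLC39A8 (0.96) and MZB1 (0.95). For OSMR they were TMEM158 (0.97), S100A2 (0.97) and IL1RN (0.96), the last being the natural antagonist of the IL1 receptor. For STAT3 they were PCBP4 (0.93), ZBTB7A (0.93) and MAP4K1 (0.92). All the values of LIFR, OSMR and STAT3 are over 12 cows.

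The rest of the pathway was described through 7 lists, with the brightest probe of each gene, beside all 12639 named genes. The median difference over all named genes was -0.03, with 1.63% of them at an unadjusted p under 0.05 and higher in REST and 1.01% lower. The medians of the 7 lists lay between -0.10 and 0.07. In 6 of the 7 lists 0 genes had an unadjusted p under 0.05, and in the other, the involution genes, 1 had.

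Of 9 further ligands of the family, 4 were matched, and EBI3, a subunit of IL27 and IL35, was the only one of them above background in all cows. OSM, the ligand of OSMR, was above background in 1 CONT and 2 REST cows, with a difference of 0.20 (SE 0.36). CTF1, cardiotrophin, was above background in 1 cow per diet, with a difference of -0.43 (SE 0.51). Most values of OSM and CTF1 are thus not above background.

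All 4 further receptors were matched. IL11RA, the IL11 chain, had a difference of -0.05 (SE 0.17), CNTFR, the ciliary neurotrophic factor chain, 0.19 (SE 0.52), and IL27RA, which binds IL27, -0.29 (SE 0.28). IL31RA, the partner of OSMR in IL31 signaling, was not well above background in any cow. No unadjusted limma p-value among these was below 0.314.

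Of the 4 Janus kinases, JAK1 and TYK2 were matched and well measured. JAK1, the main kinase of the shared receptor chain, had a difference of 0.23 (SE 0.34), and TYK2 of -0.09 (SE 0.23). The other TYK2 probe gave -0.59 (SE 0.42), and the 3 other JAK1 probes 0.22 to 0.44. The 6 other STATs were all matched, with a median difference of -0.04. The extremes were STAT2, which serves interferon signaling, at -0.29 (SE 0.21), and STAT5B, which with STAT5A carries the prolactin signal, at -0.26 (SE 0.36).

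Of 16 inhibitors of the pathway 12 were matched, and their median difference was -0.001. SOCS3, the feedback inhibitor that STAT3 induces and that binds the shared receptor chain, was above background in 2 CONT cows and 0 REST cows. The SOCS3 signals ranged from -5.87 to -3.66 in CONT and from -6.42 to -3.57 in REST, and thus overlapped. As 10 of the 12 values are not above background, no fold is given for SOCS3. PTPN2, a phosphatase that removes the activating phosphate of STATs, had a difference of -0.22 (SE 0.18).

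The acute phase and immediate targets of STAT3 were matched for 24 of 26 genes, with a median difference of 0.03. CRP, an acute phase protein of the liver, was above background in 0 CONT and 3 REST cows, and no lower bound above 1 could be set for it. HP and SAA3 were both high in most cows of both diets and had differences of -0.69 (SE 1.37) and -0.79 (SE 0.73). Without REST cow 0049 the HP difference turned to 0.48 and that of SAA3 was -0.028, so that neither gives a direction. Their large errors came with low signals in REST cows 0049 and 1015: HP was -3.51 in cow 0049 and -0.27 in cow 1015, and 1.61 or more in the other 10 cows. These REST cows were also low for OSMR, STAT3 and IL6R, but not every cow low for these genes was low for HP and SAA3. CONT cow 1076, the lowest for STAT3 (1.54), had HP at 1.68 and SAA3 at 8.72. CONT cow 0015, low for OSMR (-2.21), had HP at 2.58 and SAA3 at 9.31.

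Of 16 genes of the involution program under STAT3, 15 were matched, with a median difference of -0.02, 6 higher and 9 lower in REST. IGFBP5, which binds the growth factor IGF1 and is known to increase at involution, was the 1 gene with an unadjusted p under 0.05. Its log2 signals were -0.56 to 1.65 in CONT and -1.81 to -0.33 in REST, and REST cow 0049 (-0.33) lay above 3 of the CONT cows. The other 5 REST cows lay below all 6 CONT cows. The difference was -1.06 with an SE of 0.38 (limma, unadjusted p = 0.0146; exact permutation p = 0.00866), and 6 of 6 REST cows were below the CONT mean. The second IGFBP5 probe gave -1.12 (SE 0.41).

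The adjusted p of IGFBP5 (limma) was 1 with Westfall-Young and 0.99992 with Benjamini-Hochberg, so that it did not pass over the array. Without CONT cow 0055, the highest, the difference was -0.73, and without slide 1 it was -0.71. TGFB3, a growth factor of early involution, had a difference of -0.55 (SE 0.28; limma, unadjusted p = 0.0675), and 5 of 6 REST cows were below the CONT mean. It ranged from -0.73 to -0.35 when single cows were left out: without REST cow 0049 it was -0.35, and the unadjusted limma p fell to 0.0118 without REST cow 0078, 0.0464 without CONT cow 0015 and 0.0493 without REST cow 1018. With the slide as a block it was -0.33. The other TGFB3 probes gave -0.22 (SE 0.24; above background in 4 cows of each diet) and 0.004 (SE 0.42; above background in 1 cow).

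**Figure D4:**
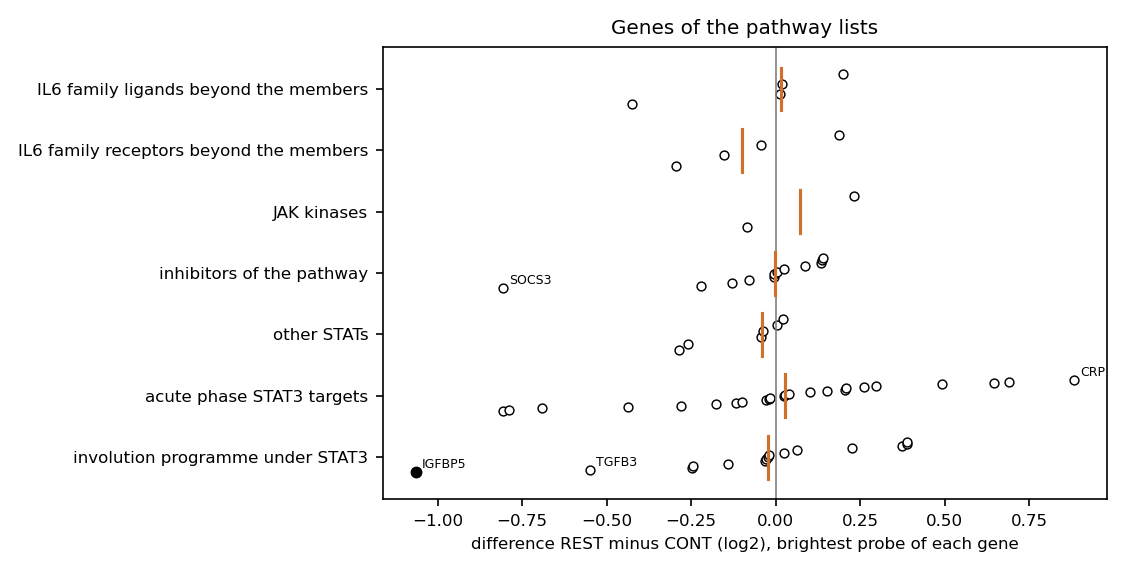
Difference REST minus CONT in log2 signal of the brightest probe of each gene (horizontal axis) for the 7 pathway lists, with an orange line at the median of a list and a filled point for an unadjusted limma p under 0.05. The list medians lie between -0.10 and 0.07, and 1 gene, IGFBP5 (-1.06), has a filled point.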

How the data were processed

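The microarray data of 12 mammary biopsies (6 CONT, 6 REST) were used, with 1 array per cow. The authors labeled 100 ng of RNA with Cy3 and read the images with Feature Extraction 11.0.1.1; the deposited values are background-corrected spot intensities, not normalized between arrays. Outlier spots and controls were left out, and log2 intensities minus the 75th percentile of the array were averaged per probe (205 probes lacked a value on at least 1 array). No filter was set on dim probes. The array number limits the precision.

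REST and CONT were compared with limma 3.58.1 (R 4.3.3), two-sided, with Westfall-Young adjustment as in the study's methods (100 of the 462 possible divisions of the cows), and with Benjamini-Hochberg. Exact permutation tests enumerated the splits (lowest p 0.00216). Correlations used 100000 permutations. The procedure was tested on simulated data. A gene of a list was represented by its brightest probe. Named in the text were all member probes, measured genes of pathway lists of 5 or fewer, and in other pathway lists those with an unadjusted p under 0.05 or, where fewer than 2, the largest differences; the 3 genes most like each member; and genes chosen after their values were seen (EBI3, HP, SAA3 and single markers, among them all with an unadjusted p under 0.05). The housekeeping genes UXT, CLN3 and EIF3K had differences of -0.09, 0.12 and -0.02. The members and the lists were chosen with earlier results of these data known. Alternatives were quantile normalization, centring on detected probes, normexp (offset 50), the deposited matrix, a filter on dim probes, outlier spots kept, slide as a block or left out, an intensity trend, other probes of a gene, and each cow left out.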

Additional observations from a re-analysis of the deposited data

Results flagged for a closer look

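Dixon's test at the 95% level was applied to the 32 groups of values of the member probes, of which chance marks about 1 in 20, and it marked 2. The dimmer IL6R probe (A_73_P092326) had a log2 signal of -2.36 in REST cow 0049, above the other 5 REST cows at -3.19 to -2.90. The brightest LIFR probe (A_73_101806) had -4.17 in CONT cow 8027, below the other 5 CONT cows at -2.53 to -2.09.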

How the results depend on the processing

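No member probe and no other probe passed the adjusted threshold under the alternatives run, and 825 to 1739 probes had an unadjusted limma p under 0.05 when 1 cow was left out (377 with normexp). The Westfall-Young adjustment was computed for the main setting and the filter on dim probes, and Benjamini-Hochberg alone for the other alternatives. With the filter, the lowest Westfall-Young adjusted limma p over 26678 probes was 0.05, at the threshold. Signs turned for several differences. Within slides 1, 2 and 3, the brighter IL6R probe was 0.64, -1.16 and 0.91, and the brightest LIFR probe -0.38, 0.40 and 0.68. The brightest STAT3 probe kept its sign (0.38, 0.05 and 0.54), and the other STAT3 probes were negative within slide 2 only. Without slide 1, IL6R was -0.073 (brighter probe) and 0.26 (dimmer probe), CTF1 0.28 and IL11RA 0.060; with slide as a block, the second STAT3 probe was 0.015, CTF1 0.20, CNTFR -0.14 and TYK2 0.019; with normexp, OSM was -0.078 and IL11RA 0.016. Leaving out single cows, the ranges were -0.093 to 0.26 and -0.16 to 0.070 for the IL6R probes, -0.053 to 0.38 for the brightest LIFR probe, -0.0094 to 0.40 for OSM, -0.12 to 0.017 for IL11RA, -0.15 to 0.42 for CNTFR and -0.21 to 0.078 for TYK2; the LIFR sign turned without CONT cow 8027 alone, and that of HP (0.48) without REST cow 0049, in a setting chosen after the values were seen. With the same sign throughout, the ranges were 0.090 to 0.49 for JAK1, -0.41 to -0.16 for STAT2, -0.53 to -0.028 for STAT5B, -0.82 to -0.085 for CTF1, -0.44 to -0.17 for IL27RA and -0.28 to -0.14 for PTPN2. In the correlations, IL6R with OSMR was 0.98 within REST and 0.65 without the 2 farthest cows, IL6R with STAT3 was 0.50 within CONT and 0.96 within REST, and OSMR with STAT3 was 0.97 within REST. With the second probe of a gene, chosen after the values were seen, OSMR with STAT3 was 0.85, and IL6R was -0.24 with OSMR, -0.26 with STAT3 and 0.57 with LIFR. The causes were not tested. Signals near background limit IL6, LIF, SOCS3 and the dimmest LIFR probe. No paired analysis was possible because each cow number occurs in 1 group.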
